A study of Homo sapiens with 4 samples.

Results

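The genes of the ATF4 amino acid response and the cytosolic tRNA synthetases were examined in SCP2 cells, derived from the human breast cancer line MDA-MB-231 and known to colonise bone. The list holds 44 genes, and 42 of them are measured by 87 probe sets that the platform annotation assigns to exactly 1 symbol, among 19775 such genes in all. GPT2 has no listed probe set, and the 3 probe sets of MARS1 are shared with a second symbol and were not used. The 4 groups were cells overexpressing DLC1 with TGF-beta, vector control cells with TGF-beta, cells overexpressing DLC1 without TGF-beta and vector control cells without it. Each group was measured on 1 array, so no group has a replicate, no value has an error and no p-value is given. DLC1 encodes a GTPase-activating protein known as a tumour suppressor, and TGF-beta is a cytokine stored in bone matrix. The labels name neither dose nor time for TGF-beta, nor the construct, nor whether the cells are 1 clone or a pool.

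ATF4 is a transcription factor whose protein is made when the initiation factor eIF2 is phosphorylated, by the kinase GCN2 when amino acids run short or by PERK when proteins misfold in the endoplasmic reticulum. It is controlled largely at translation, so its messenger RNA need not follow its protein. Its known targets import amino acids, synthesise serine, asparagine, proline and cysteine, charge tRNAs, and include feedback genes that restore translation or restrain growth signalling. Tumour cells are known to use this programme when nutrients or oxygen are scarce.

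Intensities are the deposited values on a linear scale in arbitrary units, and each gene is shown by its brightest probe set, judged by the mean of the 4 arrays. Genes that reached 0.38, the overall median intensity, on at least 1 array were kept, which left 13136. Of the 42 measured genes of the list, 41 were kept. STC2, a secreted glycoprotein, lay between 0.17 and 0.21 and was dropped. CBS, an enzyme that makes cystathionine, was kept through 1 array alone, at 0.46 in the array labelled DLC1 with TGF-beta.

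The DLC1 transcript does not settle the labels. Its brightest probe set, 210762_s_at, read 3.64 in the array labelled DLC1 and 2.51 in the vector array with TGF-beta, and 3.38 and 1.77 without it, while 224822_at was lower in both arrays labelled DLC1, at 1.69 against 2.41 and 1.44 against 1.79. The dim set 220512_at was also lower in both, at 0.19 against 0.41 with TGF-beta and 0.18 against 0.26 without it. The sets 220511_s_at and 242631_x_at stayed below the filter, at no more than 0.14. The text therefore speaks of arrays labelled DLC1. All 6 markers of MDA-MB-231-type cells were measured and kept, among them VIM at 160.3 to 205 and CD44 at 56.3 to 84.1. All 4 epithelial genes were kept as well, among them KRT18 at 56.8 to 65.1. Of the markers of other cells, 2 of 4 measured leukocyte genes were kept, LAPTM5 at 5.4 to 9.53 and CD14 at 1.08 to 1.67, while PTPRC and CD3E stayed below the filter. The luminal gene GATA3 read 3 to 4.59 and ESR1 0.39 to 0.46, while PGR and FOXA1 stayed below the filter. The endothelial genes PECAM1 and KDR were kept at no more than 0.96, while VWF and CDH5 were not. As bulk measurements, these values cannot tell fewer cells of a kind from less RNA per cell. Probe sets for 18S ribosomal RNA, placed on the array as controls, were 0.35, 0.30 and 0.07 higher on the log2 scale at the 5' end, middle and 3' end in the array labelled DLC1 with TGF-beta, and 0.84, 0.85 and 0.43 higher without it. Their part in the results below was not tested.

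The gene list was higher in the arrays labelled DLC1. Of the 41 kept genes, 11 were at least 2-fold higher with TGF-beta and 9 without it, and none was 2-fold lower in either state. Over all kept genes 1.45% were at least 2-fold higher with TGF-beta and 1.63% without it, and 1.64% and 2.34% were 2-fold lower. The 7 genes past 2-fold in both states, whose comparisons share no array, were TRIB3, NUPR1, VLDLR, DDIT4, SESN2, SLC3A2 and SLC1A4, where 0.86% of all kept genes passed in both. The median log2 difference of the list was 0.46 with TGF-beta and 0.55 without it, against -0.02 and -0.03 over all kept genes. For 34 of the 41, both arrays labelled DLC1 lay above both vector arrays, as they did for 28.7% of all kept genes. The 34 include CBS, which passed the filter only through the array labelled DLC1 with TGF-beta. ATF5 and ALDH18A1 lay below on both, and SLC7A11, SLC7A5, EPRS1, LARS1 and TARS1 overlapped.

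**Figure D1:**
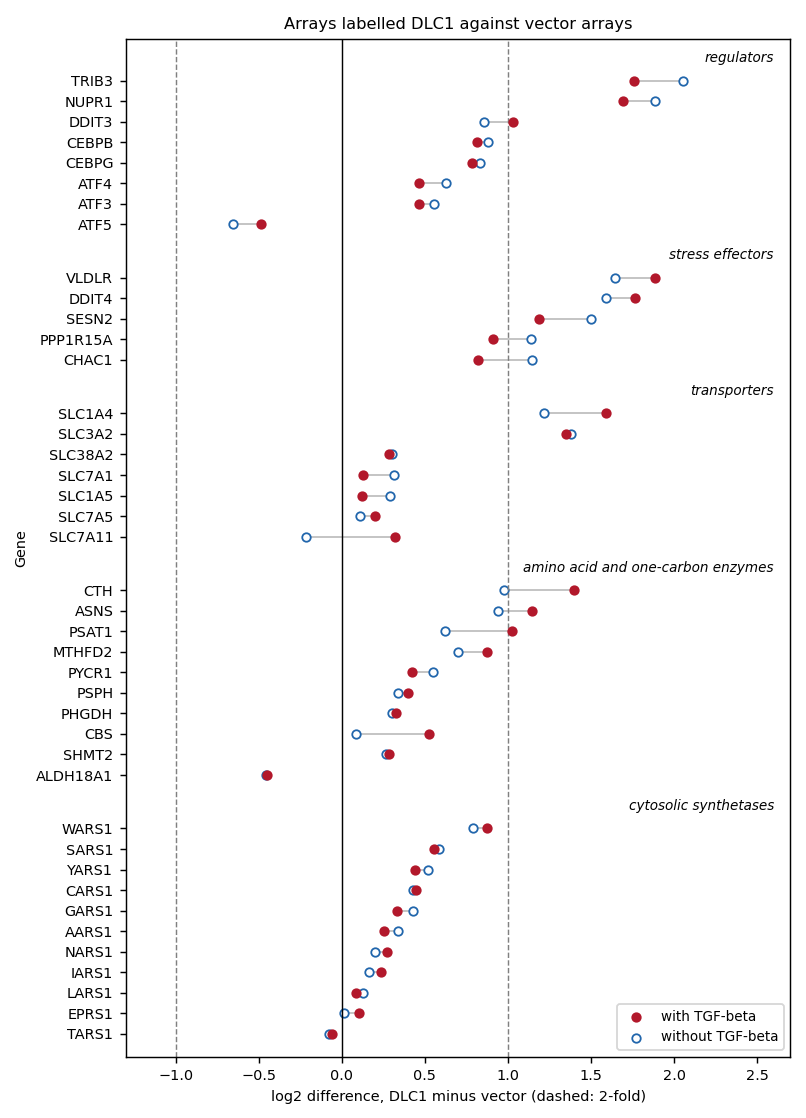
Log2 difference of the array labelled DLC1 minus the vector array for each of the 41 kept genes, by role, with TGF-beta (filled points) and without it (open points). Dashed lines mark 2-fold. TRIB3, NUPR1, VLDLR and DDIT4 lie farthest to the right, and ATF5 and ALDH18A1 lie left of 0 in both states.

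The promoters show which of these genes carry the DNA element that ATF4 is known to bind. RefSeq promoters of GRCh38.p14 were found for 36 of the 44 genes, and the 250 bases before each start were searched on both strands for TGATGNAA, the core of the C/EBP-ATF response element. ATF4 binds this element together with a C/EBP partner. The letters occur in 8 of the 36, namely ASNS, CHAC1, ATF3, CEBPG, AARS1, GARS1, IARS1 and SLC1A5, and in 3.89% of 27305 genes with a promoter. A gene with several starts counted if any held the match. The cAMP response element TGACGTCA, which reads the same on both strands, occurs in PPP1R15A alone of the 36 and in 2.03% of all genes. The endoplasmic reticulum stress response element, CCAAT followed after any 9 bases by CCACG, occurs in none of the 36, in 6 of 16 chaperone and degradation genes with a promoter and in 0.0916% of all genes. No match says only that these letters are not in this window. The stretches below are shown because they hold the same core in genes whose differences between the arrays ranged from 2-fold to close to 0. Capitals mark the core on either strand, and each line runs 5′ to 3′ along the gene's strand up to the base before its start.
ASNS promoter at chr7:97872409-97872658, minus strand: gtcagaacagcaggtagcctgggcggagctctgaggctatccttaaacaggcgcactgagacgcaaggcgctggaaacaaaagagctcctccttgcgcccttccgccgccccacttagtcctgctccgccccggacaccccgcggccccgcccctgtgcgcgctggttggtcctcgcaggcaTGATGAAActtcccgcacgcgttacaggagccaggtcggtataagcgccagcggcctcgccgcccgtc
CHAC1 promoter at chr15:40953221-40953470, plus strand: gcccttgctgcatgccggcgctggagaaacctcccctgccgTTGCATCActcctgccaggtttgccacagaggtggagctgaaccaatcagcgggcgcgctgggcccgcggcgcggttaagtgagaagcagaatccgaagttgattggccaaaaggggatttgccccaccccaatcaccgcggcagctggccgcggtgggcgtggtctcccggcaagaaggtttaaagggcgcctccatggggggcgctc
CEBPG promoter at chr19:33373863-33374112, plus strand: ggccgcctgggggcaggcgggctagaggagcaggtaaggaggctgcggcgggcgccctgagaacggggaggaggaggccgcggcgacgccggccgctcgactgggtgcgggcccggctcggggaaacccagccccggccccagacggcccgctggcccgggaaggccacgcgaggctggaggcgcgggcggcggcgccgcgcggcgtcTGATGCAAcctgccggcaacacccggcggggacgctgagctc
AARS1 promoter at chr16:70289507-70289756, minus strand: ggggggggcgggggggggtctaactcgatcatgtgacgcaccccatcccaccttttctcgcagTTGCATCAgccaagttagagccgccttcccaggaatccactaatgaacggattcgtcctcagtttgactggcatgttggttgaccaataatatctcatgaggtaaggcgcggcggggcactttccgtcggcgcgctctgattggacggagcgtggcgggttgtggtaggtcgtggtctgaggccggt
For the other 4 genes the 30 bases around the core are given.
ATF3 at chr1:212565205-212565234, plus strand: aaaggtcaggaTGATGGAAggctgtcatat
GARS1 at chr7:30594834-30594863, plus strand: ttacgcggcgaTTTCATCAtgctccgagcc
IARS1 at chr9:92293698-92293727, minus strand: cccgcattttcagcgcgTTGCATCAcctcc
SLC1A5 at chr19:46784893-46784922, minus strand: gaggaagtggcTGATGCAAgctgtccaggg
The core begins 68 bases before the start in ASNS, 209 in CHAC1, 42 in CEBPG and 187 in AARS1. Of the 8 genes with the core, ASNS passed 2-fold with TGF-beta and CHAC1 without it, while IARS1 and SLC1A5 differed by at most 0.29 on the log2 scale. With and without TGF-beta, CEBPG gave 0.79 and 0.83, ATF3 0.47 and 0.55, GARS1 0.33 and 0.43 and AARS1 0.25 and 0.34. Whether the core has a part in these differences was not tested. TRIB3, VLDLR, DDIT4, SESN2, SLC3A2 and SLC1A4, past 2-fold in both states, hold no match, and NUPR1 had no promoter to search.

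Among the regulators, TRIB3, NUPR1, DDIT3, CEBPB and CEBPG had bigger differences than ATF4 in both states, while ATF3 lay close to ATF4 by its brightest set and ATF5 was lower. ATF4 read 106 in the array labelled DLC1 and 76.6 in the vector array with TGF-beta, and 104 and 67 without it. Both arrays labelled DLC1 lay above both vector arrays, by 1.38-fold and 1.54-fold. TRIB3, a pseudokinase that feeds back on ATF4, read 36.7 in the array labelled DLC1 and 10.8 in the vector array with TGF-beta, and 37.7 and 9.07 without it. It was 3.39-fold and 4.16-fold higher, and its second probe set, 1555788_a_at, gave 1.31 and 1.47 on the log2 scale.

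NUPR1, a small stress-induced chromatin protein, read 27.5 in the array labelled DLC1 and 8.5 in the vector array with TGF-beta, and 23.9 and 6.46 without it. The lower array labelled DLC1 was still well above the higher vector array, and the differences were 3.24-fold and 3.69-fold. DDIT3, which encodes the stress-induced C/EBP family factor CHOP, read 16.7 in the array labelled DLC1 and 8.17 in the vector array with TGF-beta, and 17.6 and 9.74 without it. It passed 2-fold with TGF-beta and stayed just inside it without, at 1.03 and 0.86 on the log2 scale.

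CEBPB and CEBPG encode leucine zipper factors that pair with ATF4. CEBPB read 58 in the array labelled DLC1 and 33 in the vector array with TGF-beta, and 59.1 and 32.2 without it, and CEBPG read 16.9 in the array labelled DLC1 and 9.8 in the vector array with TGF-beta, and 16.6 and 9.35 without it. Both were within 2-fold in each state but did not overlap between the labels, at log2 differences of 0.81 and 0.88 for CEBPB and 0.79 and 0.83 for CEBPG. CEBPG's other probe set, 225527_at, gave 0.61 and 0.82.

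ATF3, a stress-induced repressor and activator, and ATF5, a relative of ATF4 that is also controlled at translation, went different ways. ATF3 read 3.3 in the array labelled DLC1 and 2.39 in the vector array with TGF-beta, and 3.42 and 2.33 without it. Its log2 differences were 0.47 and 0.55, but the dimmer set 1554980_a_at gave -0.08 and 0.06. ATF5 read 1.84 in the array labelled DLC1 and 2.58 in the vector array with TGF-beta, and 2.06 and 3.25 without it, lower in both arrays labelled DLC1 at -0.49 and -0.66. Its 4 probe sets parted: 204999_s_at gave -0.42 and -0.43, 217389_s_at gave 0.21 and 0.31 and 230938_x_at gave -0.03 and 0.12.

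The stress effectors had the highest median of the 5 roles, with 3 of 5 kept genes past 2-fold with TGF-beta and all 5 without it. Over all kept genes 1.45% were at least 2-fold higher with TGF-beta and 1.63% without it. VLDLR, a lipoprotein receptor, read 4.62 in the array labelled DLC1 and 1.25 in the vector array with TGF-beta, and 3.62 and 1.16 without it. DDIT4, an inhibitor of the growth kinase complex mTORC1, read 43.1 in the array labelled DLC1 and 12.7 in the vector array with TGF-beta, and 39.7 and 13.2 without it. For both, the arrays split by label alone, with differences of 3.7-fold and 3.12-fold for VLDLR and 3.39-fold and 3.01-fold for DDIT4.

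SESN2, a leucine-sensing inhibitor of mTORC1, read 4.63 in the array labelled DLC1 and 2.03 in the vector array with TGF-beta, and 4.59 and 1.62 without it, 2.28-fold and 2.83-fold higher. Its second probe set, 223195_s_at, gave log2 differences of 1.15 and 1.87. The 2 sets placed SESN2 past 2-fold in both states. PPP1R15A, the phosphatase subunit GADD34 that reverses the phosphorylation of eIF2, read 5.27 in the array labelled DLC1 and 2.8 in the vector array with TGF-beta, and 5.83 and 2.65 without it. Its log2 differences were 0.91 and 1.14 in the set used and 1.03 and 1.17 in 202014_at, so only the second set passed 2-fold with TGF-beta.

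CHAC1, which breaks down glutathione and carries the core shown above, read 2.12 in the array labelled DLC1 and 1.2 in the vector array with TGF-beta, and 3.09 and 1.4 without it. It passed 2-fold without TGF-beta, at 0.82 and 1.14 on the log2 scale with and without the cytokine. STC2 stayed below the filter on every array.

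**Figure D2:**
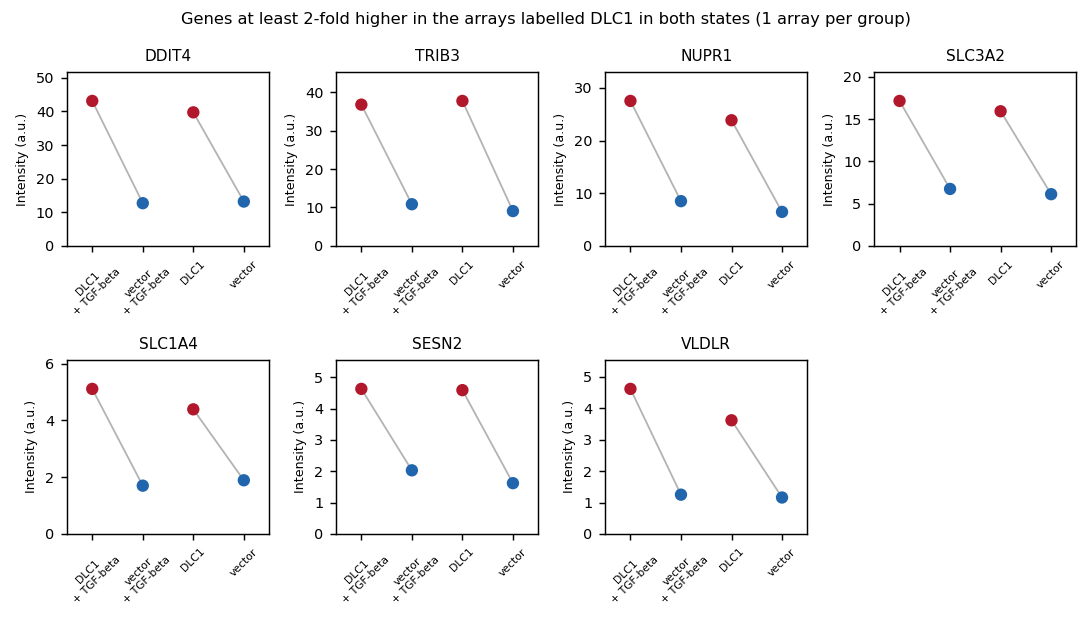
Intensity in arbitrary units on each array for the 7 genes past 2-fold in both states, with axes from 0 and lines joining the 2 arrays of each state. In every panel both arrays labelled DLC1 lie above both vector arrays.

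Only 2 of the 7 amino acid transporter genes passed 2-fold, and both were higher in each state, as 0.86% of all kept genes were. SLC3A2, the heavy chain that carries several amino acid exchangers to the membrane, read 17.1 in the array labelled DLC1 and 6.74 in the vector array with TGF-beta, and 15.9 and 6.12 without it, 2.54-fold and 2.6-fold higher. SLC1A4, a carrier of alanine, serine and cysteine, read 5.11 in the array labelled DLC1 and 1.7 in the vector array with TGF-beta, and 4.39 and 1.89 without it, 3.01-fold and 2.32-fold higher. Its other bright sets, 212810_s_at and 212811_x_at, gave log2 differences of 1.75 and 1.97 and of 1.32 and 1.09, while the dim sets 209611_s_at and 244377_at gave 0.74 and 0.24 and 0.61 and 1.19.

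The light chains that pair with SLC3A2 did not follow it. SLC7A5, the carrier of large neutral amino acids, read 30.5 in the array labelled DLC1 and 26.6 in the vector array with TGF-beta, and 22.1 and 20.5 without it, at log2 differences of 0.20 and 0.11. SLC7A11, the cystine carrier, read 51.8 in the array labelled DLC1 and 41.5 in the vector array with TGF-beta, and 50.0 and 57.9 without it, so the vector array without TGF-beta was the highest of the 4. Its set 217678_at gave 0.27 and -0.46 and its dimmer set 207528_s_at 0.86 and 0.31.

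SLC7A1, a carrier of arginine and lysine, SLC1A5, a glutamine carrier, and SLC38A2, a sodium-coupled carrier of small neutral amino acids, stayed within 0.31 of 0 on the log2 scale in both states. SLC38A2 read 125 in the array labelled DLC1 and 103 in the vector array with TGF-beta, and 131 and 106 without it, and its 3 probe sets gave 0.27 to 0.33 with TGF-beta. SLC1A5, which carries the core in its promoter, gave 0.12 and 0.29.

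Of the 10 measured amino acid and one-carbon enzymes, 9 lay above 0 in each state, CBS among them. With TGF-beta 3 passed 2-fold, and none did without it. Over all kept genes 46.7% lay above 0 with TGF-beta and 45.3% without it, and 1.45% and 1.63% were at least 2-fold higher. CTH, which makes cysteine from cystathionine, read 36.7 in the array labelled DLC1 and 13.9 in the vector array with TGF-beta, and 35 and 17.8 without it. Its log2 differences were 1.40 and 0.97, and its second set, 206085_s_at, passed 2-fold in both states at 1.53 and 1.14. ASNS, asparagine synthetase, read 48 in the array labelled DLC1 and 21.7 in the vector array with TGF-beta, and 45.1 and 23.6 without it. Both arrays labelled DLC1 were close to each other, and the differences were 2.21-fold and 1.92-fold.

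The serine pathway differed step by step. PSAT1, its aminotransferase, read 71.5 in the array labelled DLC1 and 35.2 in the vector array with TGF-beta, and 64.2 and 41.8 without it, at log2 differences of 1.02 and 0.62, and its set 220892_s_at passed 2-fold in both states at 1.28 and 1.18. PHGDH, the first enzyme of the pathway, gave 0.32 and 0.30, and PSPH, the last, 0.40 and 0.34. The middle step thus had a bigger difference on the arrays than the steps before and after it.

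MTHFD2, a mitochondrial folate enzyme, read 39.1 in the array labelled DLC1 and 21.3 in the vector array with TGF-beta, and 40.2 and 24.8 without it, at log2 differences of 0.88 and 0.70. SHMT2, which feeds that pathway from serine, gave 0.28 and 0.26 and lay closest to 0 of the 10 enzymes in the mean of both states. The proline pathway split, since PYCR1, its last enzyme, gave 0.42 and 0.55 and ALDH18A1, its first, -0.45 and -0.46. ALDH18A1 read 7.43 in the array labelled DLC1 and 10.1 in the vector array with TGF-beta, and 7.51 and 10.3 without it, and its other set, 217791_s_at, gave -0.36 and -0.35. CBS gave 0.52 and 0.08 on values of at most 0.46.

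By its brightest set, none of the 11 measured cytosolic synthetase genes of the list passed 2-fold. Over all kept genes 1.45% were at least 2-fold higher with TGF-beta and 1.63% without it, and 1.64% and 2.34% were 2-fold lower. A count of 0 among 11 is near these shares. In each state 10 of them lay above 0, where 46.7% of all kept genes did with TGF-beta and 45.3% without it. Their median log2 differences were 0.27 with TGF-beta and 0.34 without it. WARS1, which charges tryptophan tRNA, read 31.6 in the array labelled DLC1 and 17.2 in the vector array with TGF-beta, and 29.8 and 17.2 without it. It stood highest of the 11, at 0.88 and 0.79, and its set 200628_s_at gave 0.75 and 0.89.

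SARS1, for serine, read 39.5 in the array labelled DLC1 and 26.9 in the vector array with TGF-beta, and 37.5 and 25 without it, at 0.56 and 0.58, and its set 231894_at gave 0.93 and 0.82. YARS1, for tyrosine, gave 0.44 and 0.52, CARS1, for cysteine, 0.44 and 0.43, and GARS1, for glycine, 0.33 and 0.43. AARS1, for alanine, NARS1, for asparagine, and IARS1, for isoleucine, were nearer to 0, between 0.17 and 0.34. For these 8 genes both arrays labelled DLC1 lay above both vector arrays, as for 28.7% of all kept genes.

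EPRS1, for glutamate and proline, LARS1, for leucine, and TARS1, for threonine, did overlap. TARS1, the 1 gene below 0, read 55 in the array labelled DLC1 and 57.2 in the vector array with TGF-beta, and 51.4 and 54.2 without it. Its dim set 240206_at gave 1.57 and 1.25, past 2-fold in both states, and the set 238760_at of YARS1 gave 1.12 and 1.89, also past 2-fold in both. The 4 sets of LARS1 lay on both sides of 0 in each state, between -0.30 and 0.26 with TGF-beta.

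The cytosolic synthetases outside the list lay on the other side of 0, and the mitochondrial ones lay on both sides. Of 8 further cytosolic synthetase genes 6 were measured, and all 6 were lower in both arrays labelled DLC1 than in both vector arrays, as 33.1% of all kept genes were, with median log2 differences of -0.30 with TGF-beta and -0.31 without it. FARSB, for phenylalanine, gave -0.57 and -0.59, HARS1, for histidine, -0.46 and -0.30, RARS1, for arginine, -0.28 and -0.47, and KARS1, for lysine, -0.29 and -0.25. Of 15 measured mitochondrial synthetase genes, 5 lay above 0 with TGF-beta and 6 without it, at medians of -0.21 and -0.22. Over all kept genes 46.7% lay above 0 with TGF-beta and 45.3% without it. SARS2, which serves mitochondrial serine tRNA, gave -0.80 and -0.52 and was the lowest with TGF-beta. No gene of these 2 sets passed 2-fold in either state. The list's synthetases were named as known ATF4 targets with results of these arrays in view, so the split between the sets is a description and not a test.

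**Figure D3:**
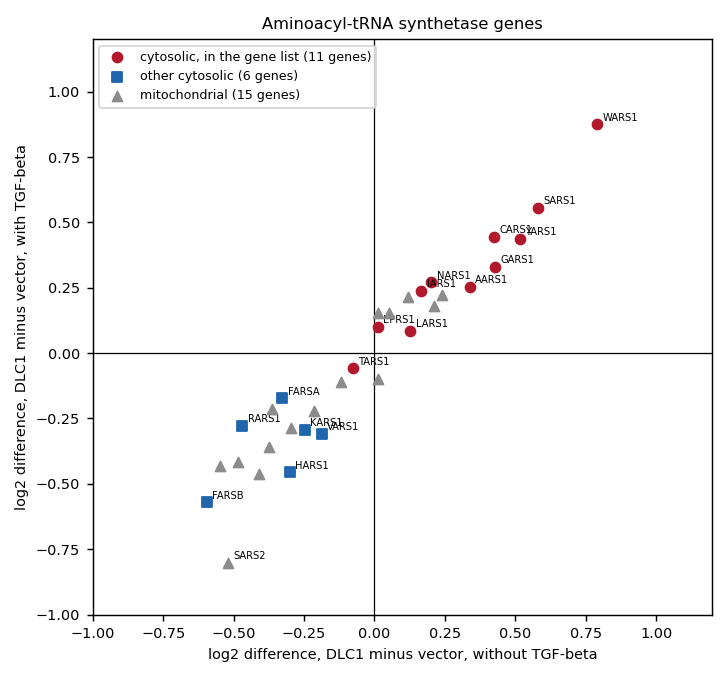
Log2 difference of the array labelled DLC1 minus the vector array without TGF-beta (horizontal axis) and with it (vertical axis) for 32 synthetase genes, 1 point per gene. WARS1 is at the upper right, all 6 other cytosolic genes are in the lower left quadrant, and the mitochondrial genes (triangles) lie on both sides of 0.

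Several probe sets per gene gave a further reading of the same arrays. Of the 41 genes, 23 had more than 1 probe set reaching the median of all values. In 18 of the 23 all sets lay on 1 side of 0 with TGF-beta, and in 19 without it. The exceptions with TGF-beta were ATF3, ATF5, EPRS1, LARS1 and TARS1, and those without it were ATF5, LARS1, SLC7A11 and TARS1. Sets of a gene can measure different transcripts, and which ones they measure was not examined here.

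**Figure D4:**
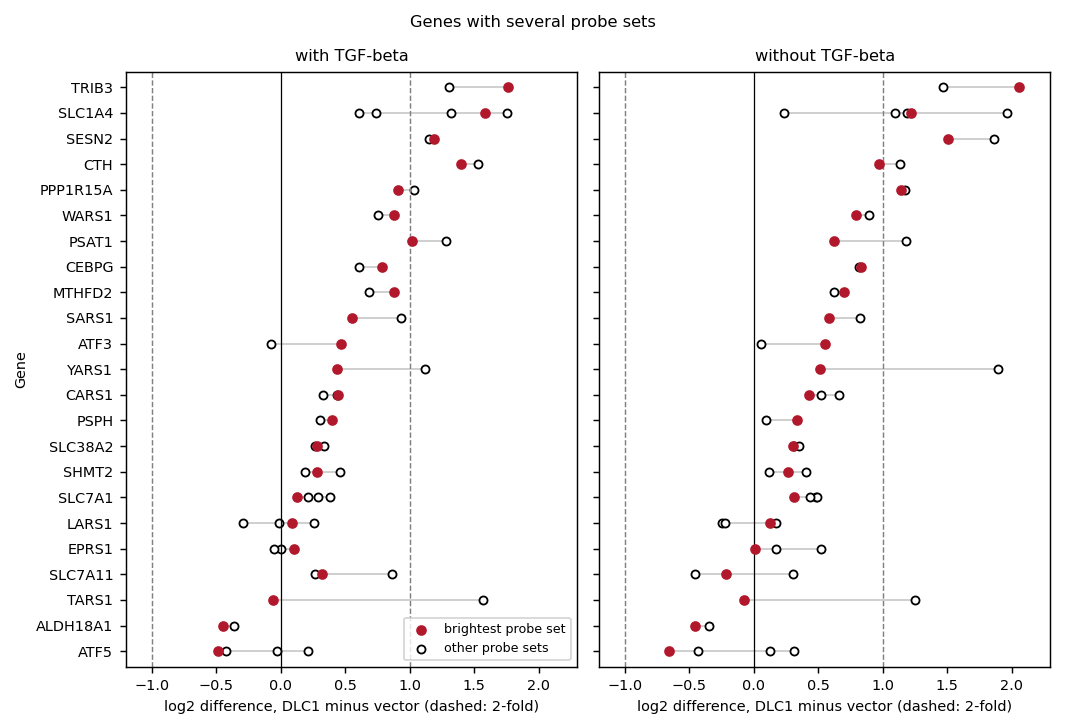
Log2 difference of the array labelled DLC1 minus the vector array for every probe set that reached the median of all values, in the 23 genes with more than 1, with TGF-beta (left) and without it (right). Filled points are the brightest set of a gene. The sets of TRIB3, SESN2, CTH, WARS1 and PSAT1 lie together on the right, and those of TARS1, SLC1A4, YARS1 and ATF5 lie far apart.

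The genes that act above ATF4 differed in both directions. EIF2AK3, which encodes PERK, read 11.3 in the array labelled DLC1 and 6.23 in the vector array with TGF-beta, and 11 and 5.23 without it, at log2 differences of 0.85 and 1.07, and was the 1 gene past 2-fold among 5 eIF2 kinase and phosphatase genes. EIF2AK4, which encodes the amino acid sensor GCN2, read 6.59 in the array labelled DLC1 and 9.33 in the vector array with TGF-beta, and 5.61 and 10.8 without it, at -0.50 and -0.94. The 2 kinases thus differed in opposite directions. EIF2AK1 gave 0.02 and 0.14, EIF2AK2 gave 0.21 and -0.04 and PPP1R15B, the constitutive partner of PPP1R15A, gave -0.16 and -0.07. Of 8 subunits of eIF2 and its exchange factor eIF2B, 6 lay below 0 in each state and none passed 2-fold. EIF2B2 was the highest at 0.50 and 0.34. Over all kept genes 46.7% lay above 0 with TGF-beta and 45.3% without it. At least 2-fold higher were 1.45% and 1.63%, and 1.64% and 2.34% were 2-fold lower. A count of 0 among 8 is near these shares.

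Chaperone and degradation genes of the endoplasmic reticulum, which belong to other arms of the unfolded protein response, were also higher. Of 15 measured chaperone and degradation genes, 10 were at least 2-fold higher with TGF-beta and 10 without it, as 1.45% and 1.63% of all kept genes were. Their median folds were 2.25 with TGF-beta and 2.82 without it, against 1.38 with TGF-beta and 1.47 without it for the ATF4 list. HSP90B1, a chaperone, gave 1.40 and 1.92, and PDIA4, a disulfide isomerase, 1.67 and 1.90. GDF15, a secreted stress factor known as a target of ATF4 and CHOP, read 7.06 in the array labelled DLC1 and 0.78 in the vector array with TGF-beta, and 14.8 and 1.59 without it, while FGF21, another secreted target, stayed at 0.15 to 0.16. The differences of these groups come from the same 4 arrays as those of the ATF4 list and share their error.

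Few genes of any kind passed 2-fold with TGF-beta. None of the 41 genes was past 2-fold in the arrays labelled DLC1 or in the vector arrays, where 0.792% and 1.21% of all kept genes were higher and 0.107% and 0.685% lower. A count of 0 among 41 is near these shares and does not set the ATF4 list apart. The median log2 difference with TGF-beta was 0.05 in the arrays labelled DLC1 and 0.04 in the vector arrays. The differences with TGF-beta and between the labels share arrays and are not independent readings.

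CHAC1 had the biggest single difference with TGF-beta, at -0.54 and -0.22 in the arrays labelled DLC1 and in the vector arrays. SLC7A5 was higher with TGF-beta in both backgrounds, at 0.46 and 0.37, and NUPR1 gave 0.21 and 0.40. All of these are inside 2-fold. ATF4 gave 0.03 and 0.19 and DDIT3 -0.08 and -0.25. The 11 synthetases lay between 0.01 and 0.17 in the arrays labelled DLC1 and between -0.01 and 0.21 in the vector arrays. These differences are small, but all 11 lay above 0 in the arrays labelled DLC1 and 10 in the vector arrays. Over all kept genes 46% and 43.3% did.

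The enzymes had small differences with TGF-beta, which changed sign between the backgrounds for ASNS, PSAT1, PSPH, CTH and CBS. Of the 10 amino acid and one-carbon enzymes, 8 lay above 0 in the TGF-beta response of the arrays labelled DLC1 and 2 in that of the vector arrays, where 46% and 43.3% of all kept genes did, and the difference between the 2 responses was above 0 for 9 of them, as for 53.7% of all kept genes. CBS is among the 8 and the 9, at 0.35 and 0.44, but was kept only through the array labelled DLC1 with TGF-beta. Its place in both counts is therefore no support for them. CTH gave 0.07 and -0.36, PSAT1 0.15 and -0.25 and MTHFD2 -0.04 and -0.22. The difference between the 2 responses reached 2-fold for none of the 41 genes, where 0.19% of all kept genes were past it upward and 0.175% downward, and it ran from -0.32 for CHAC1 to 0.54 for SLC7A11.

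**Figure D5:**
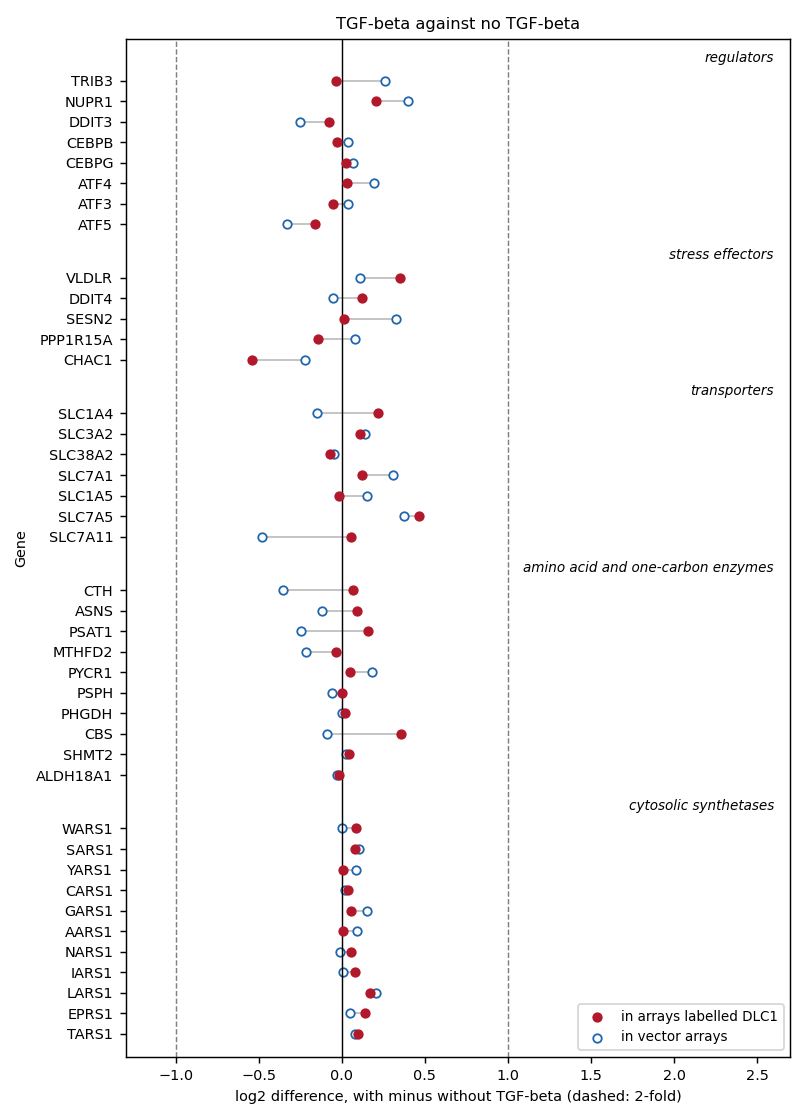
Log2 difference with minus without TGF-beta for each of the 41 kept genes, by role, in the arrays labelled DLC1 (filled points) and in the vector arrays (open points). All points lie inside the dashed 2-fold lines, and CHAC1, SLC7A11 and SLC7A5 lie farthest from 0.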

How the data were processed

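Messenger RNA of 4 groups of SCP2 cells was hybridised to 1 array each, and arrays were grouped by their labels alone. Trizol extraction and oligo-dT priming are stated per the labels' protocols. For 54675 probe sets the authors deposited an intensity on a linear scale, given to 2 decimals. The submitters' processing notes name RMA with no version or settings, and how its log2 output was put on this scale is unknown. The median intensity of each array was 0.38 or 0.39. RMA brings the distributions of the arrays close together, which tends to hide a shift common to most genes. The deposited distributions are close but not the same, with array maxima from 258 to 265.58. Ratios between very dim values are coarse because of the rounding.

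Differences of log2 values were taken in Python 3.11.15 (numpy 2.4.6, pandas 2.3.3). Quantile and cyclic loess alternatives used limma 3.58.1 in R 4.3.3. A gene counted as different from 2-fold, a log2 difference of 1. Symbols are those of the platform annotation, where 41097 probe sets have exactly 1 symbol, 1801 have several and 11777 are not listed. With 1 array per group no test was possible, and the number of arrays limits the precision. The genes, lists and motifs were chosen with earlier results of these data known. Every gene of the list may be named. Values on all arrays are given for those past 2-fold, for ATF4, ATF3, ATF5 and DDIT3, and for genes near 0. Of each other list up to 4 genes with the biggest differences between the labels are named, and further ones were picked after their values were seen. The 2-fold rule was run on simulated data whose noise and differences were set by hand, as a check of the code only. As the noise of these arrays is unknown, that run does not measure how often the rule errs here. Alternatives changed the scaling, the probe sets, the filter, an added constant of 0.1 and the threshold.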

Additional observations from a re-analysis of the deposited data

Results flagged for a closer look

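SLC7A11 changed little under TGF-beta in the arrays labelled DLC1 and was lower under it in the vector background. By its brightest probe set the difference with TGF-beta was 0.05 on the log2 scale in the arrays labelled DLC1 and -0.48 in the vector arrays, on opposite sides of 0, and the responses differed by 0.54. With 1 array per group this difference was not tested, and neither response reached 2-fold. The other probe sets of SLC7A11 gave -0.02 and -0.74 for 217678_at and 0.08 and -0.47 for 207528_s_at in the same order of backgrounds, so the first of these lay below 0 in both.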

How the results depend on the processing

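Of 90 summary values recomputed under the 9 alternatives, 83 stayed within 1.5 times the count or within 0.1 of the median first given. With probe sets named _x_at and _s_at left out, 26 genes of the list remained, and 4 of them were past 2-fold with TGF-beta, 5 without it and 2 in both states. By their brightest sets the same 26 genes gave 4, 4 and 2, so fewer genes account for most of the drop in counts. The genes counted were not all the same. TRIB3 and YARS1 were past 2-fold in both states, YARS1 by 238760_at at 1.12 and 1.89, while SLC1A4 was no longer so. NUPR1, VLDLR, DDIT4, SESN2 and SLC3A2 were not measured without those sets. At a 1.5-fold threshold, 17 genes differed with TGF-beta, all of them higher, 19 without it, of which ATF5 was lower, and 17 were higher in both states, where 5.88%, 5.76% and 3.82% of all kept genes were higher. With the mean of all probe sets the median with TGF-beta was 0.60. Counts of genes past 2-fold with TGF-beta and in the difference between the responses stayed at 0 under all 9 alternatives. Of 20 differences past 2-fold between the labels, 18 stayed past it in every alternative that measured them at that threshold. ASNS with TGF-beta gave 0.78 as a mean of its sets and 0.41 by its dim set alone, and SLC1A4 with TGF-beta gave 0.61 by 244377_at. GDF15 in the response to TGF-beta of the arrays labelled DLC1 gave 0.10 with those sets left out, against -1.07 otherwise, since another probe set then stands for the gene. Of 2200 single-gene values under the alternatives, 127 moved by over 0.1. No paired analysis was possible because each group has 1 array and the labels carry no replicate numbers. Dim values such as those of CBS limit what their ratios can show.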

Other observations

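Neighbouring gene groups gave a mixed picture. Among amino acid transporter genes outside the list, 10 of 13 were kept. SLC7A2, a carrier of arginine, was lower in the arrays labelled DLC1, at log2 differences of -1.27 and -1.31 with and without TGF-beta. SLC7A7, another light chain of SLC3A2, was higher with TGF-beta, at 1.14 and 1.46 in the arrays labelled DLC1 and in the vector arrays. Of the folate enzymes outside the list 4 were kept, and MTHFD1 gave -0.51 and -0.49 and the thymidylate synthase gene TYMS -0.65 and -0.60 between the labels, opposite in sign to MTHFD2.

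Lists that share genes or inducers with the ATF4 response were set beside it. Of 6 NRF2 target genes none passed 2-fold between the labels. Over all kept genes 1.45% were at least 2-fold higher with TGF-beta and 1.63% without it, and 1.64% and 2.34% were 2-fold lower. HMOX1, heme oxygenase, read 8.26 in the array labelled DLC1 and 13.7 in the vector array with TGF-beta, and 3.31 and 3.29 without it, more than 2-fold higher with TGF-beta in both backgrounds. Of 6 kept hypoxia target genes, NDRG1 gave 0.95 and 1.42 between the labels. ANKRD37 was at least 2-fold higher in both states, as 0.86% of all kept genes were. VEGFA gave 0.71 and 0.76 and PDK1 0.22 and 0.32, while ADM gave 0.11 and -0.23 and BNIP3 0.08 and -0.16. Of 5 interferon gamma target genes, which can share WARS1 as a target, 1 lay above 0 in each state, and GBP1 gave -0.79 and -1.31. Over all kept genes 46.7% lay above 0 with TGF-beta and 45.3% without it.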
